A study of Homo sapiens with 9 samples.

Results

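Heat shock proteins and their J-domain partners were examined as 1 set of 68 gene rows, out of 17911 rows in a count table of human cell cultures. Members were rows whose symbols belong to the HSPA, HSPB, HSPD, HSPE, HSPH, HSP90, DNAJA, DNAJB and DNAJC series, without pseudogenes and without HSPA5, HSP90B1 and DNAJB9. They comprise 10 HSP70 genes, 3 HSP110 genes, 2 cytosolic HSP90 genes, 2 mitochondrial chaperonin genes, 6 genes named as small heat shock proteins, and 4 DNAJA, 9 DNAJB and 27 DNAJC genes. The same symbols brought in 3 antisense RNAs, the readthrough HSPE1-MOB4 and HSPBAP1, a gene for an HSPB1-binding protein, so that 63 of the 68 code for chaperones or co-chaperones by name.

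HSP70 proteins bind exposed hydrophobic stretches of unfolded proteins in a cycle driven by ATP. J-domain proteins bring the clients and trigger ATP hydrolysis, and exchange factors, the HSP110 proteins among them, open HSP70 again. HSP90 acts later, on kinases and receptors that are close to their final fold, while HSPD1 and HSPE1 form a folding chamber in mitochondria and small heat shock proteins hold unfolding proteins in solution. Heat and other protein damage release the transcription factor HSF1, which binds heat shock elements in front of many of these genes, and tumour cells are known for high chaperone levels.

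The labels describe 9 RNA-seq samples of MDA-MB-231, an established line from a triple-negative breast cancer, typed as WT: 3 capsule cultures, 3 large liquid overlay spheroids and 3 small ones. All cells were kept in RPMI with 10% fetal bovine serum, and every sample carries the same treatment text, with 5% Matrigel, trastuzumab (an antibody against ERBB2) and RNA taken after 96 h, so no untreated cells were in the set, and the labels do not say what a capsule is made of. The 3 capsule columns of the table each matched 1 sample. The 6 other columns fall by name into a set called L.O and a set called Sph.WT, 3 columns each. These names gave no spheroid size, and the Sph.WT names gave no cell line, so the 6 were taken as spheroid columns whose sample numbers are unknown.

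The column sets stood apart in more than culture format. Across 15384 genes, which are not independent replicates, Pearson's r of log levels was 0.972 to 0.983 between capsule and L.O columns and 0.669 to 0.682 between capsule and Sph.WT columns, against 0.992 to 0.996 within sets. Totals ran from 13212665 to 13735221 counts in the capsule columns, from 15525725 to 15988167 in L.O and from 16605098 to 33263076 in Sph.WT. The 18 genes listed as marking the MDA-MB-231 background summed to 1036 to 1072 CPM (counts per 1000000 counts of the library) in capsule, 1399 to 1493 in L.O and 6676 to 6911 in Sph.WT, with none of the 18 at 0 in any set. CDKN2A and CDKN2B, which are deleted in MDA-MB-231, summed to 493.7 to 572.4, 506.1 to 732.1 and 0.6624 to 1.157 CPM in the same order of sets. A list of 6 genes of HEK293, an embryonic kidney line, summed to 1956 to 2108, 1801 to 1948 and 27.9 to 31.55 CPM, and NEFL, PAX2 and LHX1 of that list were at 0 in every Sph.WT column. The capsule and L.O columns thus go against the MDA-MB-231 label and are called by their names here. Capsule and L.O also shared 1 file ending in the header and Sph.WT had another, so that markers, file ending and column set cannot be told apart in any value set against Sph.WT.

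Comparisons between capsule and L.O stay within 1 file ending and are given first for each gene. The markers differed within this pair too, by less: 11 of the 18 MDA-MB-231 genes were lower and 0 higher in capsule (median log2 fold change -0.61), 4 of the 6 HEK293 genes were higher and 2 lower (median 0.26), and the part of these markers in the results was not tested. Levels are normalised CPM, scaled by TMM factors, and error is the SD over 3 columns. Tests are edgeR quasi-likelihood tests across 16985 genes, p-values are adjusted by Benjamini-Hochberg and called under 0.05, and the SE beside a log2 fold change is approximate. Nothing in the labels says that the 3 columns of a set came from separate cultures, so p-values measure the spread between these columns, which may be technical. In these bulk libraries, fewer cells of a type and less RNA per cell cannot be told apart.

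Sequence in front of a few genes is shown because heat shock elements are known to lie in front of inducible members. RefSeq windows on GRCh38.p14, which hg38 denotes, cover 250 bases before to 50 after a start and were found for 63 of the 68 members. Capitals mark every GAANNTTC or TTCNNGAA, the 2-unit element, and overlapping matches join to the 3-unit element GAANNTTCNNGAA or TTCNNGAANNTTC. Both forms of each motif were searched, which covers both strands. The windows are HSPA1A at chr6:31815293-31815592 on the plus strand, HSPA1B at chr6:31827488-31827787 on the plus strand, HSP90AA1 at chr14:102086995-102087294 on the minus strand and HSPA8 at chr11:123062087-123062386 on the minus strand. HSP90AA1 has 2 listed windows, and the 1 shown was picked for having the most 2-unit matches. The last line is the stretch that the HSPE1 and HSPD1 windows share, chr2:197500225-197500428, on the strand of HSPE1.
HSPA1A: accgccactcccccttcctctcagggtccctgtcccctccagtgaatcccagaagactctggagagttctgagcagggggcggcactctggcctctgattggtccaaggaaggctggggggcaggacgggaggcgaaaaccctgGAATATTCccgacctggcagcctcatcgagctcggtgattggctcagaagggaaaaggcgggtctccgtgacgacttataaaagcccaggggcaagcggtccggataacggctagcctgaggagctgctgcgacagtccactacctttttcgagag
HSPA1B: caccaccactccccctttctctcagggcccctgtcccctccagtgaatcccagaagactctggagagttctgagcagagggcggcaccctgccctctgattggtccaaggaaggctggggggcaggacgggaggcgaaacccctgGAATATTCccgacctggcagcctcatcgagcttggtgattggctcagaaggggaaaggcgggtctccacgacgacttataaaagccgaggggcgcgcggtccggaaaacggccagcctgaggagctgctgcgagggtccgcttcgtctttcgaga
HSP90AA1: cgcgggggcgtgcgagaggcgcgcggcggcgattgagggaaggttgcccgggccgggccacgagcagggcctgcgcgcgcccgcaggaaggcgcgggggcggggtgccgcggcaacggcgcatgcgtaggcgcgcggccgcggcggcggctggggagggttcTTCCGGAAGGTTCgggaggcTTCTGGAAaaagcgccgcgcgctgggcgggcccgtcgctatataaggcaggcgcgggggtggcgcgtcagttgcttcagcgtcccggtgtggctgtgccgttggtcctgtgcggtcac
HSPA8: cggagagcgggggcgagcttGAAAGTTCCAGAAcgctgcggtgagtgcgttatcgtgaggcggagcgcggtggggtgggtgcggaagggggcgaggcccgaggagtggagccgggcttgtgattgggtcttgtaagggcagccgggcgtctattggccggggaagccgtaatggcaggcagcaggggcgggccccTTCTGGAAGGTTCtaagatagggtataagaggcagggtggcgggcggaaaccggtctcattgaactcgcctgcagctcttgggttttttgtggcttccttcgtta
HSPE1 and HSPD1: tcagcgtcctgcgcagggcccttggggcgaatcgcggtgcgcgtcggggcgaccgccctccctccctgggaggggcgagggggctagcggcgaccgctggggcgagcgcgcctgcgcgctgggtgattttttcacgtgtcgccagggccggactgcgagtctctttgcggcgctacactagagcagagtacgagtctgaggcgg

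The 3-unit element was found in 7 members, HSP90AA1, HSP90AB1, HSPA8, HSPA6, HSPD1, DNAJA1 and DNAJB6, or in 8.33% of the 84 member windows, against 0.49% of all 35116 windows. The 2-unit element was in windows of 19 members (23.8% of member windows against 13.5% of all). The windows of HSPA1A and HSPA1B agreed at 277 of 299 aligned bases (92.6%). These windows lie mostly before the start, and identity of the transcripts was not measured. Reads of the 2 genes may have been split between the copies. HSPE1 and HSPD1 start head to head, with their first bases at 197500379 on the plus strand and 197500274 on the minus strand of chromosome 2. No capital letters occur in the stretch they share, and the 3-unit element of HSPD1 lies in its other listed window.

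Across the set, 29 of 67 members tested (43.3%) were higher in capsule than in L.O columns and 12 (17.9%) were lower, against 22.5% higher and 23% lower among all genes tested. Their median log2 fold change was 0.20, against -0.018 for all genes. Scaling by library totals alone moved the median of all genes to -0.17 and the split of members to 17 higher and 16 lower. Of all 16985 genes tested, 2216 were then higher, instead of 3829, so small rises depend on the scaling. Fitted without the Sph.WT columns, the counts were 30 and 13 of 66 members. HSPE1-MOB4, with 2 to 14 counts per column, did not pass the filter on low counts and was not tested. Changes were mostly below 2-fold: 3 members (4.48%), against 6.63% of all genes, passed the threshold with at least a 2-fold difference, namely HSPA2, DNAJC22 and DNAJC15, each lower in capsule.

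**Figure D1:**
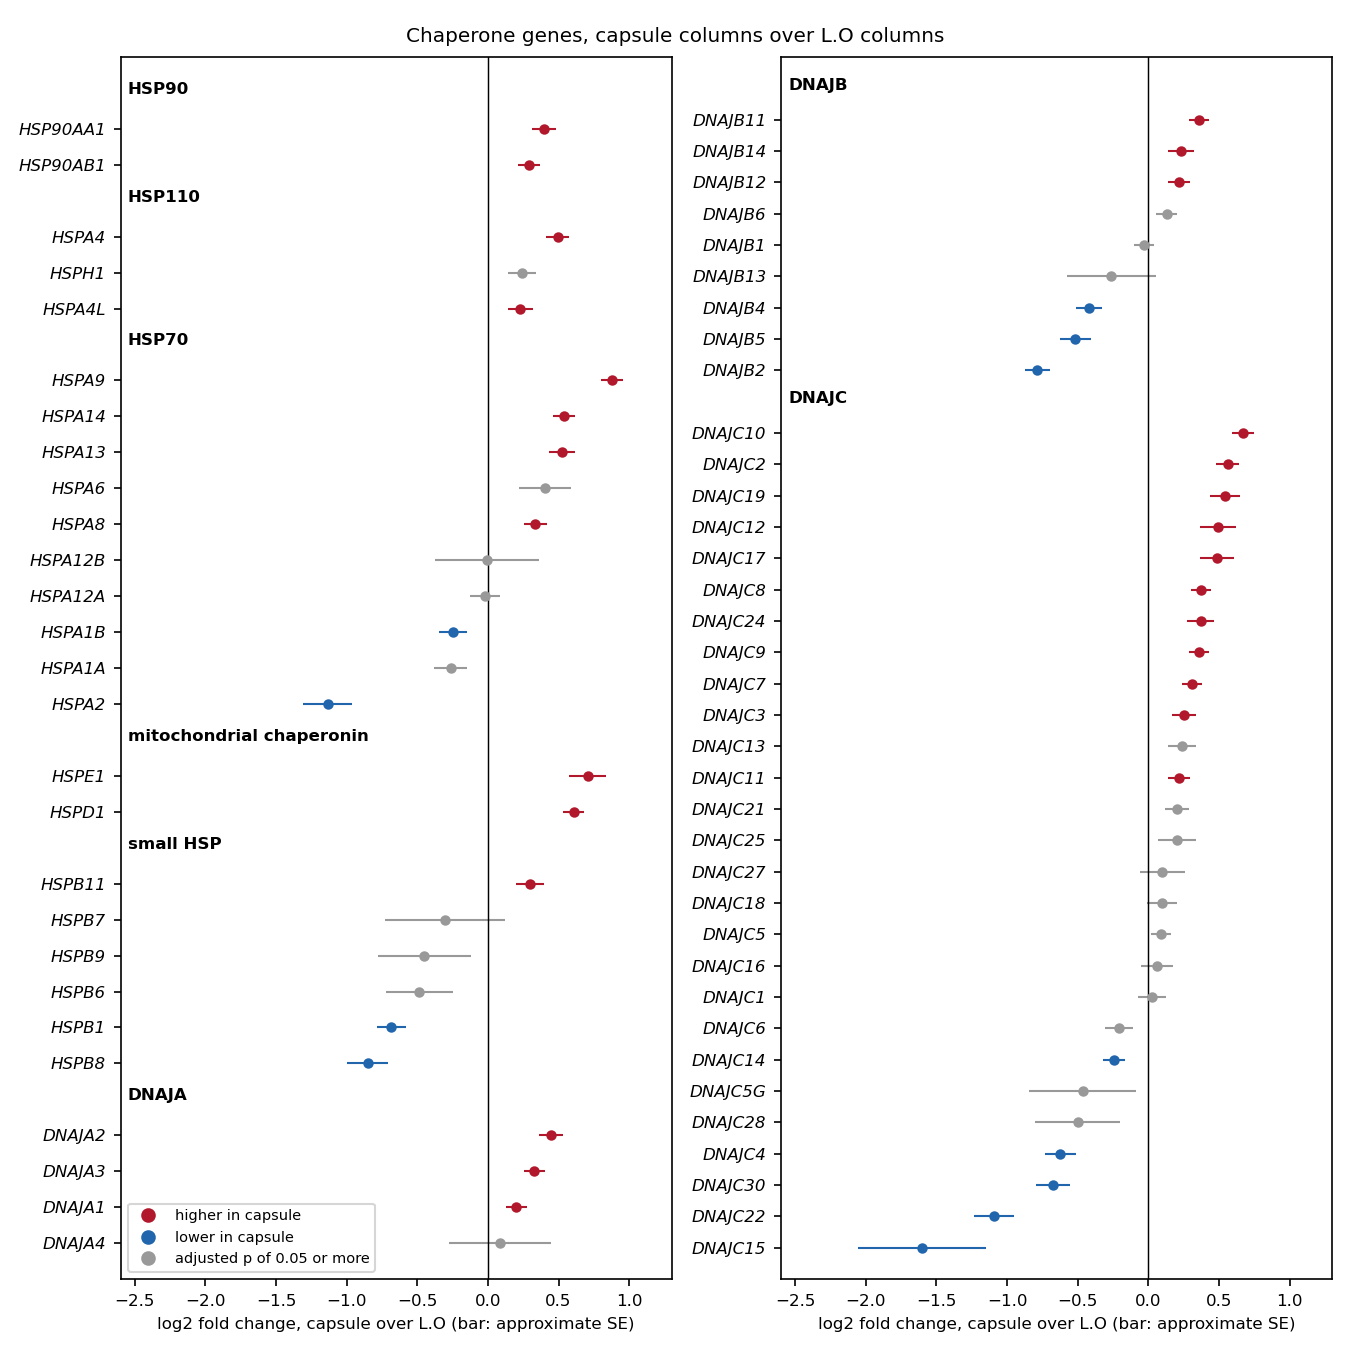
Log2 fold change of the 63 chaperone and co-chaperone genes, capsule over L.O columns, by family, with approximate SE bars from edgeR. Red marks genes higher in capsule and blue genes lower in capsule at an adjusted p under 0.05. HSPA9 (0.87) lies farthest to the right and DNAJC15 (-1.60) farthest to the left.

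Against Sph.WT the set divided more evenly and by more. Of the 67 members, 27 were higher (40.3%) and 23 lower (34.3%) in capsule, against 43% and 42% of all genes, and 21 (31.3%) passed 2-fold, against 52.5% of all genes. In L.O, 28 were higher (41.8%) and 29 lower (43.3%) than in Sph.WT, against 42.4% and 43.1% of all genes, with 25 (37.3%) past 2-fold, against 52.3%. With library totals alone these splits became 36 and 17 in capsule and 37 and 17 in L.O, and the median log2 fold change of all genes became 0.35 and 0.45. Set against the mean of both spheroid sets, capsule had 30 members higher (44.8%) and 22 lower (32.8%), against 38.9% and 35.6% of all genes, and 9 past 2-fold (13.4%), against 30.7%. With all 6 spheroid columns treated as 1 group, 2 members were higher and 2 lower.

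Abundant members carried most of the signal. Per length, in TPM (counts per kilobase of joined exons, scaled to a common total), HSP90AA1 and HSP90AB1 led in capsule with 1623 ± 134 and 1551 ± 53.7, which do not differ beyond their spread. HSPD1 (771 ± 49.6) and HSPA8 (739 ± 43.3) came next, also within their spread, followed by HSPB1 (445 ± 49.3) and DNAJA1 (425 ± 13.9; SD, n = 3 for each). In Sph.WT the order per length was HSP90AB1 (2161 ± 36.7), HSPA8 (1336 ± 135) and HSP90AA1 (890 ± 21.7). HSP90AA1, HSP90AB1, HSPA8 and HSPD1 together took 57.4% of all member counts in capsule, 54.2% in L.O and 57.5% in Sph.WT. All 68 members together took 1.03% ± 0.04, 0.925% ± 0.065 and 0.888% ± 0.023 of the library counts in capsule, L.O and Sph.WT (SD, n = 3 each).

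HSP90AA1, the heat-inducible cytosolic HSP90, had 2429, 2279 and 2600 normalised CPM in the capsule columns, 2087, 1882 and 1579 in L.O and 1461, 1504 and 1493 in Sph.WT. All 3 sets were apart, with capsule highest. It was 1.32-fold higher in capsule than in L.O (log2 0.40 ± 0.084 SE, adjusted p = 0.000549) and 1.64-fold higher than in Sph.WT (log2 0.71 ± 0.084, adjusted p = 4.81e-08). HSP90AB1, the constitutive form, had 1330, 1294 and 1344 normalised CPM in capsule, 1167, 1124 and 952.3 in L.O, and 2043, 2105 and 1999 in Sph.WT. Its order thus differed, with Sph.WT highest, capsule between and L.O lowest, and no overlap. The fold over L.O was 1.22 (adjusted p = 0.00305), while capsule was 1.55-fold lower than Sph.WT (adjusted p = 5.08e-08). The count ratio of HSP90AA1 to HSP90AB1 was 1.84 ± 0.088 in capsule, 1.71 ± 0.071 in L.O and 0.726 ± 0.019 in Sph.WT (SD, n = 3 each), or 1.05, 0.969 and 0.412 per kilobase. With library totals alone the difference of HSP90AB1 from L.O did not pass the threshold (adjusted p = 0.117).

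**Figure D2:**
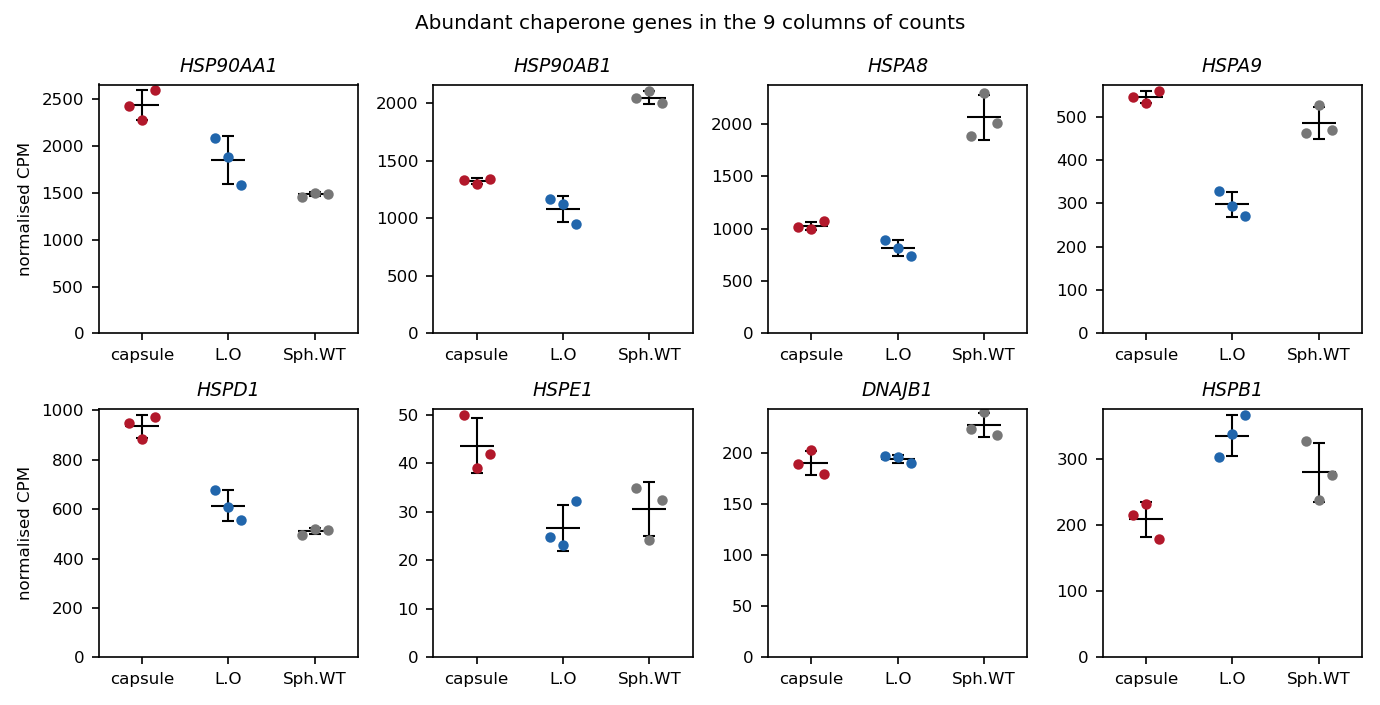
Normalised CPM of 8 abundant chaperone genes in each of the 9 columns; dots are columns, horizontal bars are means and whiskers SD (n = 3). HSPA9 and HSPD1 are higher in every capsule column than in every L.O column, HSPB1 is lower in every one, and DNAJB1 overlaps between those sets.

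HSPA8, the constitutive cytosolic HSP70, had 1010, 993.2 and 1072 normalised CPM in capsule, 885.9, 813.2 and 736.7 in L.O, and 1880, 2295 and 2008 in Sph.WT. It was 1.26-fold higher in capsule than in L.O (log2 0.34 ± 0.081, adjusted p = 0.00186; 0.0549 with library totals alone) and 2.01-fold lower than in Sph.WT (adjusted p = 7.15e-11). Every Sph.WT column lay above every other one. The third L.O column was the lowest of its set for HSP90AA1, HSP90AB1 and HSPA8, and without it all 3 genes still passed.

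HSPA9, the mitochondrial HSP70 (mortalin), showed the largest rise of any member over L.O. It had 544.2, 532.2 and 559.5 normalised CPM in capsule, 327.4, 295 and 269.7 in L.O, and 461.1, 527.3 and 468.1 in Sph.WT. The difference from L.O was 1.83-fold (log2 0.87 ± 0.078, adjusted p = 2.14e-08), and that from Sph.WT 1.12-fold (adjusted p = 0.0492), a call that was lost in 6 of the 9 fits that left out 1 column. HSPD1, the large subunit of the mitochondrial chaperonin, had 950, 883.6 and 975.3 in capsule, 679.7, 607.4 and 558.1 in L.O and 496.3, 520 and 516.4 in Sph.WT. Its partner HSPE1, the lid of the chamber, had 49.88, 39.06 and 41.86 in capsule, 24.89, 23.23 and 32.13 in L.O, and 34.99, 24.21 and 32.52 in Sph.WT. For both genes every capsule column lay above every L.O and Sph.WT column. HSPD1 was 1.52-fold higher in capsule than in L.O (adjusted p = 1.5e-06) and HSPE1 1.63-fold higher (adjusted p = 0.000162). HSPE1 shares exons with HSPE1-MOB4 and sits beside HSPD1, and HSPD1 and HSPE1 have many processed copies in the genome, so their counts may be shared with other features. Mitochondrial mRNA took 3.16 to 3.36% of counts in capsule, 2.66 to 3.03% in L.O and 5.35 to 5.41% in Sph.WT, and its part in these results was not tested.

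Mitochondrial J-domain members over L.O included DNAJA3, a partner of HSPA9, with 78.86, 82.78 and 77.77 normalised CPM in capsule, 63.1, 65.7 and 62.09 in L.O, and 38.93, 37.49 and 35.21 in Sph.WT. The sets did not overlap, with a 1.25-fold difference from L.O (adjusted p = 0.00117) and a 2.14-fold difference from Sph.WT (adjusted p = 4.88e-12). DNAJC19, part of the protein import motor of the inner membrane, was 1.46-fold higher in capsule than in L.O (22.6 ± 1.62 against 15.5 ± 1.82 normalised CPM, adjusted p = 0.000329), and DNAJC11, which belongs to a membrane complex of the cristae, was 1.16-fold higher (78.5 ± 0.76 against 67.5 ± 2.63, adjusted p = 0.0302). The call of DNAJC11 ended with library totals alone (adjusted p = 0.484) and in 5 of the 9 fits that left out 1 column. DNAJC30, a mitochondrial protein, was 1.6-fold lower (13.9 ± 1.13 against 22.2 ± 2.64, adjusted p = 9.02e-05). DNAJC15 of the inner membrane, described below, was lower too (log2 -1.60, adjusted p = 0.00628), at few counts. The direction was therefore not common to all mitochondrial members.

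The stress-inducible pair HSPA1A and HSPA1B behaved otherwise. HSPA1A had 66.17, 80.46 and 69.72 normalised CPM in capsule, 88.73, 100.8 and 70.29 in L.O and 34.99, 27.37 and 25.86 in Sph.WT, and HSPA1B had 102.5, 112.4 and 107.2 in capsule, 134.7, 144.8 and 103.3 in L.O and 26.25, 25.94 and 21.25 in Sph.WT. Capsule and L.O overlapped for both genes, with the third L.O column inside the range of capsule, and Sph.WT lay below every other column. HSPA1B was 1.19-fold lower in capsule than in L.O (adjusted p = 0.0463), a call that was lost in 5 of the 9 fits that left out 1 column, with adjusted p up to 0.299. HSPA1A missed the threshold (log2 -0.26 ± 0.12, adjusted p = 0.0652), as it did with limma voom (adjusted p = 0.0821) and without a filter (0.0695). It passed as lower with library totals alone (adjusted p = 0.0066), DESeq2 size factors in edgeR (0.0391) and DESeq2 (0.0428). The same held without the Sph.WT columns (adjusted p = 0.0388) and in 3 of the 9 fits that left out 1 column. Compared with Sph.WT, capsule was 2.45-fold higher for HSPA1A (adjusted p = 9.47e-10) and 4.36-fold higher for HSPA1B (adjusted p = 1.46e-14). Since reads may be split between the copies, their sum is also given: 180 ± 12.3 normalised CPM in capsule, 214 ± 36.9 in L.O and 53.9 ± 7.08 in Sph.WT (SD, n = 3 each). HSPA1B lay above HSPA1A in every capsule and L.O column and below it in every Sph.WT column. A sum does not make up for reads that were dropped or handled otherwise between file endings, which was not tested.

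HSPA6, the HSP70 gene that is nearly silent without stress, had 66 to 75 counts in the capsule columns, 62 to 77 in L.O and 9 to 25 in Sph.WT. Its normalised level was 5.04 ± 0.442, 3.81 ± 0.346 and 0.918 ± 0.279 CPM, so that capsule was 5.39-fold above Sph.WT (adjusted p = 1.13e-09), while the difference from L.O missed the threshold (log2 0.40 ± 0.19, adjusted p = 0.0831). HSPA2, best known from sperm development, had 7.703, 8.321 and 5.81 normalised CPM in capsule, 15.94, 13.51 and 18.52 in L.O and 3.289, 5.408 and 3.188 in Sph.WT. L.O was highest without overlap, and capsule was 2.2-fold lower than L.O (log2 -1.14 ± 0.17, adjusted p = 1.91e-05). An antisense RNA, HSPA2-AS1, overlaps this gene and had 0 to 6 counts in capsule, 5 or 6 in L.O and 16 to 25 in Sph.WT, and the strand setting of the counting was not given in the sources used here.

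HSPA12A, a divergent HSP70 relative, had 35.21, 37.44 and 37.94 normalised CPM in capsule, 38.1, 40.74 and 33.3 in L.O, and 9.091, 12.47 and 12.54 in Sph.WT. Capsule and L.O overlapped (adjusted p = 0.897), and capsule was 3.23-fold above Sph.WT (adjusted p = 3.18e-12). HSPA13, a microsomal HSP70 relative, was 1.44-fold higher in capsule than in L.O (91.9 ± 5.86 against 63.8 ± 7.77 normalised CPM, adjusted p = 8.77e-05). HSPA14, which works with DNAJC2 at the ribosome, was 1.45-fold higher (105 ± 7.59 against 72.3 ± 3.88, adjusted p = 9.85e-06). Of the 10 HSP70 genes, 4 were higher and 2 lower in capsule than in L.O, and 9 were higher and 1, HSPA8, lower in capsule than in Sph.WT. Among all genes tested, 22.5% were higher and 23% lower against L.O, and 43% and 42% against Sph.WT. The HSP70 counts were 3 and 3, and 9 and 1, with library totals alone.

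HSP110 proteins exchange nucleotide on HSP70, and 2 of the 3 genes passed against L.O, both higher in capsule. Among all genes tested, 22.5% were higher and 23% lower. With library totals alone, only HSPA4 of the 3 passed (adjusted p = 0.00126). HSPA4 had 297.7, 278.2 and 303.2 normalised CPM in capsule, 221.1, 214.3 and 189.4 in L.O, and 258.8, 315 and 265.2 in Sph.WT, a 1.41-fold difference from L.O (adjusted p = 4.82e-05) with no overlap. HSPH1, the heat-inducible member, had 216.6, 222 and 225.8 in capsule, 200.2, 193.5 and 169.2 in L.O and 241.1, 332.5 and 240.3 in Sph.WT. The capsule columns lay between the other sets, without overlap, and the difference from L.O just missed the threshold (log2 0.24 ± 0.099, adjusted p = 0.0535; 0.0114 without the Sph.WT columns). HSPH1 was lower in capsule than in Sph.WT (log2 -0.29, adjusted p = 0.00859), but not with library totals alone (log2 0.021, adjusted p = 0.835) or without the second Sph.WT column (adjusted p = 0.162). HSPA4L was 1.17-fold higher in capsule than in L.O (adjusted p = 0.0327), a call that ended with library totals alone (adjusted p = 0.456) and in 4 of the 9 fits that left out 1 column.

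Small heat shock proteins were lower in capsule than in L.O where they passed, apart from HSPB11. HSPB1, the abundant HSP27, had 215.1, 231.1 and 179.6 normalised CPM in capsule, 302.6, 337.4 and 365.4 in L.O and 326.2, 237 and 275.7 in Sph.WT. Every capsule column lay below every other column. It was 1.61-fold lower in capsule than in L.O (log2 -0.68 ± 0.10, adjusted p = 1.54e-05) and 1.34-fold lower than in Sph.WT (adjusted p = 0.000664), the second call ending with library totals alone (adjusted p = 0.327). HSPB8, which pairs with the co-chaperone BAG3, was 1.81-fold lower in capsule than in L.O (7.59 ± 0.578 against 13.7 ± 1.84 normalised CPM, adjusted p = 6.77e-05). HSPB11, a ciliary transport protein that shares the name but not the chaperone role, was 1.23-fold higher (29.6 ± 2.58 against 24.1 ± 2.12, adjusted p = 0.0153), a call that ended with library totals alone (adjusted p = 0.219) and in 2 of the 9 fits that left out 1 column. HSPB6, HSPB7 and HSPB9 averaged below 5 CPM and did not pass against L.O. Of the 6 genes 1 was higher and 2 were lower, against 22.5% and 23% of all genes, and with library totals alone 0 were higher and 3 lower, HSPB6 among them (adjusted p = 0.0336).

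Among cytosolic class A J-proteins, the general partners of HSPA8, DNAJA1 had 326.4, 332.5 and 336.6 normalised CPM in capsule, 297.1, 265.5 and 304 in L.O and 319.4, 360.5 and 324.4 in Sph.WT. Capsule lay above L.O in every column by 1.15-fold (adjusted p = 0.0294), a call lost with library totals alone (adjusted p = 0.572) and in 4 of the 9 fits that left out 1 column, and it overlapped Sph.WT (log2 -0.013 ± 0.073, adjusted p = 0.868; higher in capsule with library totals alone, log2 0.30, adjusted p = 0.000424). DNAJA2 was 1.36-fold higher in capsule than in L.O (96.4 ± 4.61 against 70.8 ± 5.98 normalised CPM, adjusted p = 0.000167). DNAJA4 stayed below 2 CPM in every column and did not pass against L.O.

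DNAJB1, the main heat-inducible HSP40, had 188.7, 202.4 and 179.8 normalised CPM in capsule, 196.9, 196.2 and 189.8 in L.O and 223.6, 240.4 and 217.3 in Sph.WT. Capsule and L.O overlapped (log2 -0.030 ± 0.071, adjusted p = 0.757; lower in capsule with library totals alone, adjusted p = 0.0304), and both lay below Sph.WT (log2 -0.26 for capsule and -0.23 for L.O, adjusted p = 0.00211 and 0.00535). This position depended on the scaling: with library totals alone capsule did not pass against Sph.WT (log2 0.058, adjusted p = 0.419) and L.O was higher than Sph.WT (log2 0.24, adjusted p = 0.00219). DNAJB2, which holds ubiquitin-binding motifs and is best known from neurons, had 39.83, 38.29 and 36.68 in capsule, 68.98, 64.19 and 64.88 in L.O, and 72.84, 71.56 and 59.44 in Sph.WT. It was 1.73-fold lower in capsule than in L.O (log2 -0.79 ± 0.087, adjusted p = 3.36e-07) and 1.78-fold lower than in Sph.WT. L.O and Sph.WT overlapped (log2 -0.045, adjusted p = 0.618), but with library totals alone L.O was higher (log2 0.42, adjusted p = 4.93e-05).

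DNAJB4, a close relative of DNAJB1, had 20.32, 17.7 and 18.69 normalised CPM in capsule, 25.23, 25.12 and 25.49 in L.O and 38.81, 42.05 and 40.67 in Sph.WT. The sets were apart in that order, with capsule 1.34-fold below L.O (adjusted p = 0.000889) and 2.15-fold below Sph.WT (adjusted p = 1.03e-10). DNAJB6, which restrains polyglutamine aggregation, had 66.68, 68.61 and 61.81 in capsule, 61.54, 60.03 and 58.63 in L.O and 208.2, 226.3 and 200.6 in Sph.WT. Capsule was 3.22-fold below Sph.WT (adjusted p = 9.89e-16) and did not pass against L.O (adjusted p = 0.175). Of the 9 DNAJB genes, 3 were higher and 3 lower in capsule than in L.O (1 and 4 with library totals alone), and 1 was higher and 6 lower than in Sph.WT (3 and 5 with library totals alone). Among all genes tested the shares were 22.5% higher and 23% lower against L.O, and 43% and 42% against Sph.WT.

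**Figure D3:**
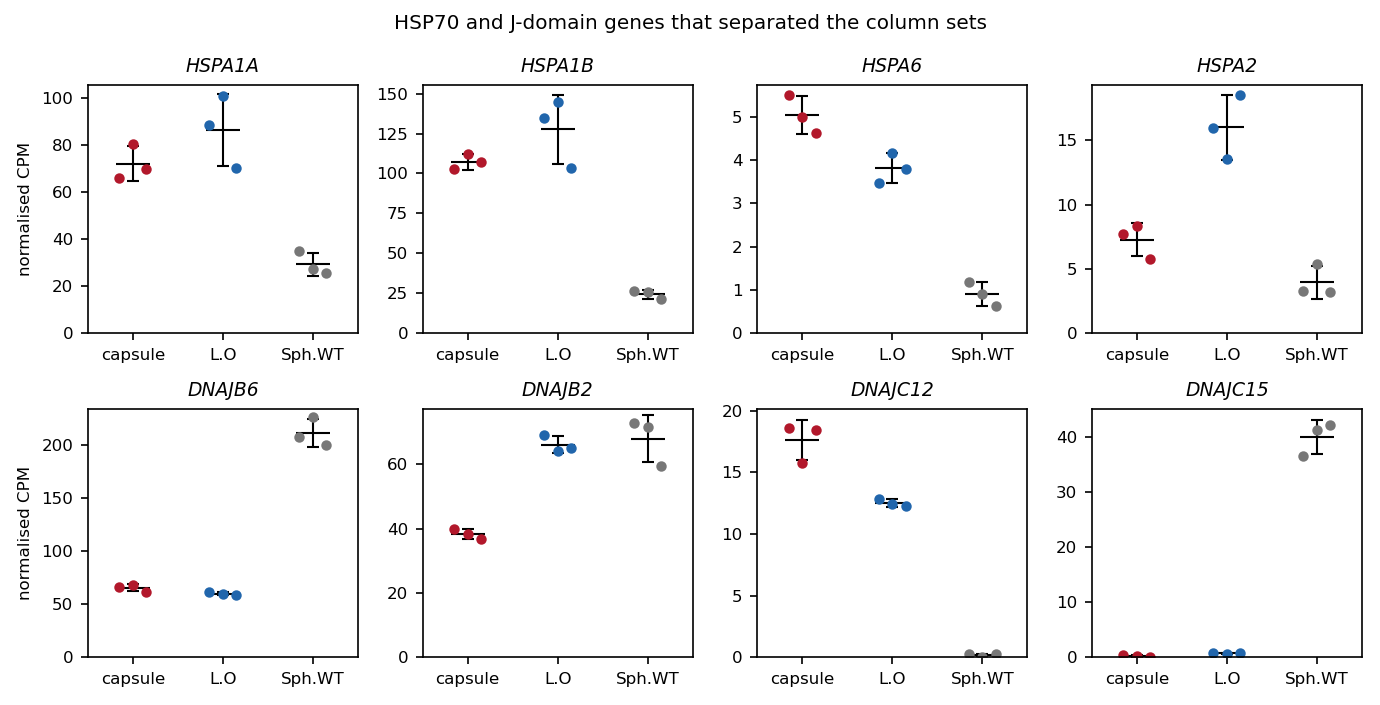
Normalised CPM of 8 HSP70 and J-domain genes by column set; dots are columns, horizontal bars are means and whiskers SD (n = 3). DNAJC15 is near 0 in capsule and L.O columns and DNAJC12 near 0 in Sph.WT columns, and HSPA2 and DNAJB2 separate capsule from L.O.

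J-proteins known from the endoplasmic reticulum differed in direction and size of change, and those given here were chosen by role after their values were seen. DNAJC14 was lower in capsule than in L.O (log2 -0.24, adjusted p = 0.0113), and DNAJC1, DNAJC16 and DNAJC18 did not pass (adjusted p = 0.864, 0.693 and 0.495). DNAJC10, a disulfide reductase of that compartment, was 1.59-fold higher in capsule than in L.O (123 ± 7.36 against 77 ± 6.01 normalised CPM, adjusted p = 6.53e-07) and DNAJB11, a soluble partner of HSPA5, 1.28-fold higher (83 ± 2.31 against 64.8 ± 1.39, adjusted p = 0.00033). DNAJC3, an inhibitor of the kinase EIF2AK2 and HSPA5 partner, was 1.19-fold higher (adjusted p = 0.0211), and the membrane proteins DNAJB12 and DNAJB14 were 1.16-fold and 1.17-fold higher (adjusted p = 0.0305 and 0.0498). The calls of DNAJC3, DNAJB12 and DNAJB14 ended with library totals alone (adjusted p = 0.35, 0.488 and 0.491) and in at least 1 of the fits that left out 1 column. Against Sph.WT, DNAJC10, DNAJC3, DNAJB12 and DNAJB14 were lower in capsule, by 1.87-fold, 2.8-fold, 1.77-fold and 2.75-fold.

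The next DNAJC members were likewise chosen by role after their values were seen. DNAJC2, a J-protein of the ribosome, had 79.15, 79.19 and 84.77 normalised CPM in capsule, 59.86, 51.54 and 53.38 in L.O and 25.36, 24.58 and 23.95 in Sph.WT. No sets overlapped, with 1.48-fold over L.O (adjusted p = 7.13e-06) and 3.29-fold over Sph.WT (adjusted p = 5.24e-15). DNAJC8, found with splicing factors, had 255.4, 239.2 and 243.7 in capsule, 195.8, 174 and 200.6 in L.O and 119.2, 120.1 and 112.4 in Sph.WT. The order of sets was the same, at 1.29-fold over L.O (adjusted p = 0.000245) and 2.1-fold over Sph.WT (adjusted p = 3.27e-12). DNAJC9, which chaperones histone H3, was 1.28-fold higher in capsule than in L.O (adjusted p = 0.000311), DNAJC7, an adaptor of HSP70 and HSP90, 1.24-fold (adjusted p = 0.00146) and DNAJC24, of the diphthamide pathway, 1.29-fold (adjusted p = 0.00276). With library totals alone DNAJC7 and DNAJC24 missed the threshold (adjusted p = 0.0626 and 0.0576). DNAJC21, of ribosome maturation, did not pass against L.O (log2 0.21, adjusted p = 0.0525).

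Lower members of the class were fewer. DNAJC4 had 17.02, 17.42 and 16.31 normalised CPM in capsule, 23.22, 25.39 and 29.56 in L.O and 30.56, 26.49 and 26.99 in Sph.WT, and DNAJC22 had 7.776, 7.897 and 10.01 in capsule, 21.37, 17.23 and 16.29 in L.O and 5.383, 4.856 and 6.447 in Sph.WT. Capsule lay below L.O in every column for both, by 1.54-fold (adjusted p = 7.03e-05) and 2.13-fold (adjusted p = 2.68e-06). DNAJC4 was also lower in capsule than in Sph.WT, while DNAJC22 was 1.56-fold higher (adjusted p = 0.000764). Of the 27 DNAJC genes, 11 were higher and 5 lower in capsule than in L.O, or 7 and 6 with library totals alone, against 22.5% and 23% of all genes.

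The other members above L.O were DNAJC17, linked to splicing (15.1 ± 0.793 in capsule against 10.8 ± 0.941 normalised CPM in L.O, 1.4-fold, adjusted p = 0.00193), and HSPBAP1 (7.46 ± 0.0478 against 5.21 ± 0.633, 1.43-fold, adjusted p = 0.00867; 0.0514 with library totals alone). The other members below L.O were DNAJB5 (16 ± 1.51 in capsule against 23 ± 2.04 in L.O, 1.43-fold, adjusted p = 0.000527) and DNAJC14 (54.5 ± 0.608 against 64.6 ± 1.11, 1.18-fold, adjusted p = 0.0113). A further 14 tested members did not pass against L.O, namely DNAJB13, DNAJC1, DNAJC5, DNAJC6, DNAJC13, DNAJC16, DNAJC18, DNAJC21, DNAJC25, DNAJC27, DNAJC28, HSPA12B and the antisense RNAs DNAJC27-AS1 and DNAJC9-AS1. Of these, DNAJC13, which acts in endosomal sorting, was 2.64-fold lower in capsule than in Sph.WT (55.5 ± 3.52 against 146 ± 19.2 normalised CPM, adjusted p = 6.47e-12). DNAJC5, the cysteine string protein of secretory vesicles, was 1.76-fold lower (139 ± 1.76 against 245 ± 13.4, adjusted p = 1.71e-10), and DNAJC21 1.79-fold lower (adjusted p = 2.38e-09). DNAJC1, DNAJC16 and DNAJC25 were likewise 1.42-fold, 1.85-fold and 1.95-fold lower in capsule than in Sph.WT, the call of DNAJC1 ending with library totals alone (adjusted p = 0.0702). DNAJC18 was 1.4-fold higher (adjusted p = 0.000328), as were the scarce DNAJB13, with 18 to 34 counts in capsule and 1 to 16 in Sph.WT, and HSPA12B (1.36 ± 0.326 against 0.436 ± 0.326 normalised CPM, adjusted p = 0.00354).

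DNAJC12 and DNAJC15 showed the largest differences from Sph.WT among members averaging at least 5 CPM. DNAJC12, a co-chaperone of the aromatic amino acid hydroxylases, had 254, 224 and 264 counts in capsule, 230, 231 and 220 in L.O and 4, 2 and 4 in Sph.WT. DNAJC15, a J-protein of the mitochondrial inner membrane known to be silenced by promoter methylation in some tumours, had 6, 3 and 1 counts in capsule, 13, 11 and 16 in L.O and 611, 1124 and 595 in Sph.WT. The genes were thus near absent in opposite sets. In normalised CPM, DNAJC12 averaged 17.6 ± 1.6 in capsule, 12.5 ± 0.302 in L.O and 0.199 ± 0.111 in Sph.WT, and DNAJC15 averaged 0.241 ± 0.187, 0.738 ± 0.149 and 40 ± 3.04 in the same order. The log2 differences of capsule from Sph.WT were 6.61 ± 0.24 for DNAJC12 (adjusted p = 2.4e-17) and -7.35 ± 0.23 for DNAJC15 (adjusted p = 9.52e-19). Within the capsule and L.O pair, DNAJC12 was 1.41-fold higher in capsule (adjusted p = 0.00312), and DNAJC15 was lower (log2 -1.60 ± 0.45, adjusted p = 0.00628), at counts close to the floor of 3 per library. Leaving out 1 column moved the log2 difference of DNAJC15 from L.O between -2.33 (without capsule replicate 1) and -1.16 (without capsule replicate 3), with adjusted p up to 0.0495, and that from Sph.WT between -8.08 and -6.92. DNAJC5G, which had 5 to 29 counts in capsule and 28 to 39 in L.O, had 1, 0 and 0 in Sph.WT.

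**Figure D4:**
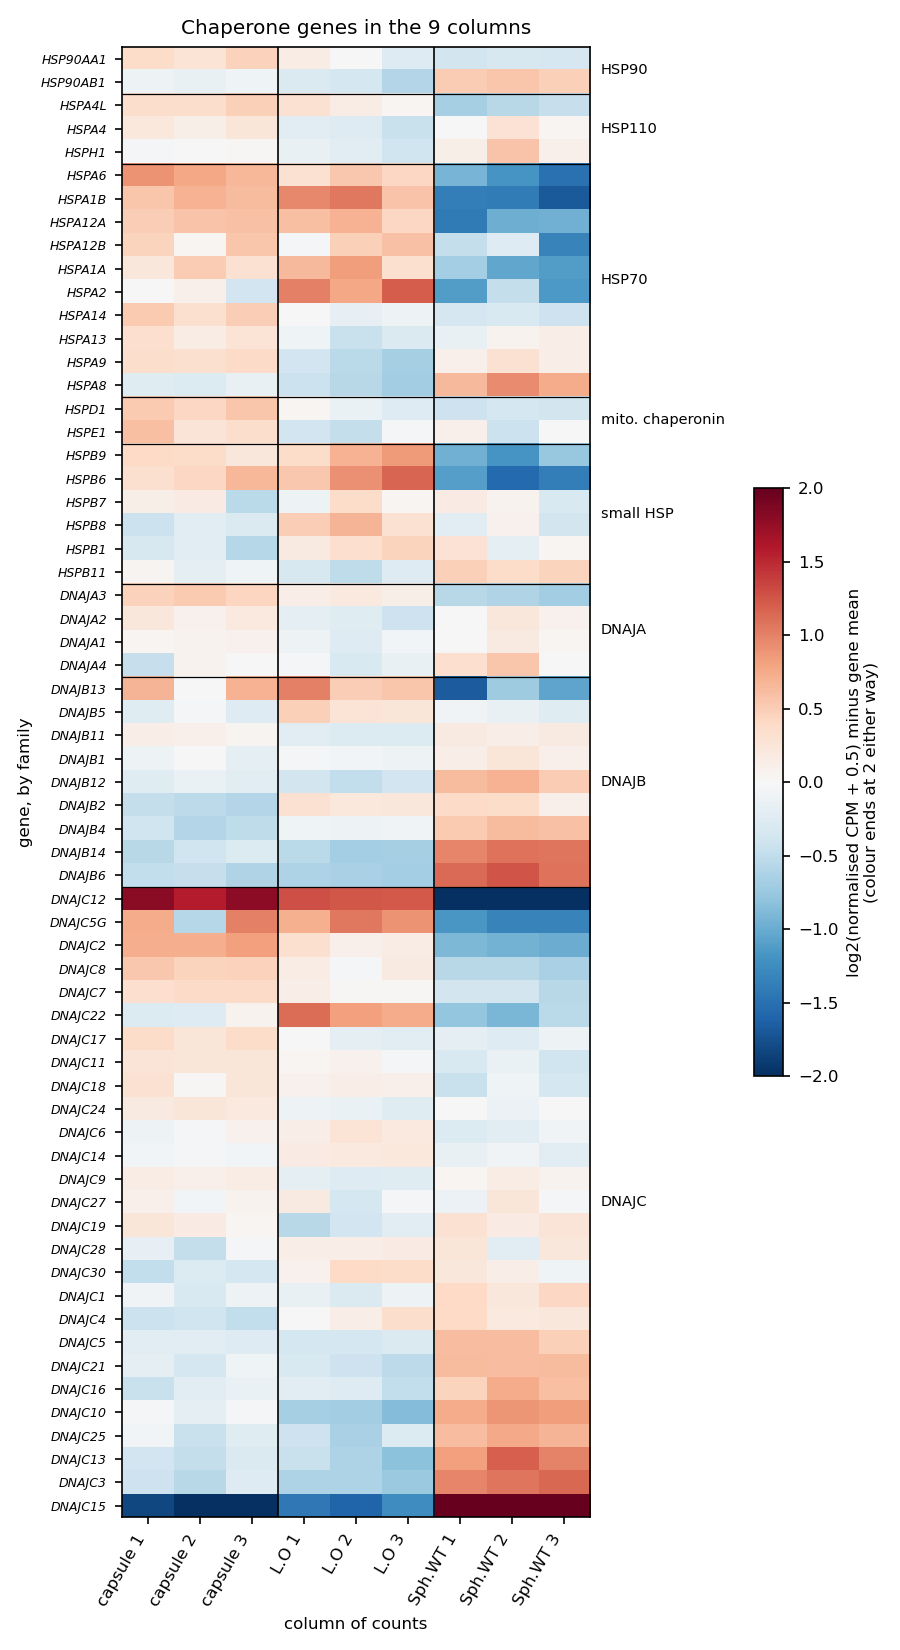
Level of the 63 chaperone and co-chaperone genes in each column, as log2(normalised CPM + 0.5) minus the mean of the gene over the 9 columns; red is above and blue below that mean. HSPA1A, HSPA1B, HSPA6 and HSPA12A are red in capsule and L.O and blue in Sph.WT, HSPA8 is the reverse, and DNAJB6, DNAJB14 and DNAJC15 are red in Sph.WT.

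The 10 members of the heat-inducible list (HSPA1A, HSPA1B, HSPA8, HSPH1, HSP90AA1, DNAJA1, DNAJB1, HSPB1, HSPD1 and HSPE1) did not move in 1 direction. The list holds HSPA8, described above as the constitutive form. Against L.O, 5 were higher in capsule (HSPA8, HSP90AA1, DNAJA1, HSPD1 and HSPE1), 2 were lower (HSPA1B and HSPB1) and 3 did not pass, with a median log2 fold change of 0.22, against 22.5% higher, 23% lower and a median of -0.018 for all genes. With library totals alone 3 were higher and 4 lower. Of the 7 members with a 3-unit element in a listed window, 5 were higher and 0 lower in capsule than in L.O (HSP90AA1, HSP90AB1, HSPA8, HSPD1 and DNAJA1), of which HSP90AA1 and HSPD1 passed also with library totals alone. Of the 19 members with a 2-unit element, which include these 7, 7 were higher, 5 lower and 7 not called in capsule against L.O, with a median log2 fold change of 0.082. Against Sph.WT, 3 of the 7 were higher and 3 lower, and 8 and 7 of the 19, where 43% of all genes were higher and 42% lower.

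Partner genes outside the set were counted in fixed lists, to be read beside the 22.5% of all genes that were higher and the 23% that were lower in capsule than in L.O. All 8 subunits of the cytosolic chaperonin CCT, which folds actin and tubulin, were higher in capsule than in L.O (median log2 fold change 0.49), and 7 of 8 passed with library totals alone. CCT2 averaged 431 ± 14.7 normalised CPM in capsule against 242 ± 18.1 in L.O (log2 0.83, adjusted p = 2.05e-08), and CCT3 averaged 984 ± 3.99 against 722 ± 40.8 (log2 0.45, adjusted p = 1.78e-05). With the prefoldin subunits that hand clients to CCT, 12 of 14 were higher and 0 lower (10 and 0 with library totals alone). Of 15 HSP90 co-chaperones 9 were higher and 0 lower (6 and 2 with library totals alone), led by CHORDC1 (log2 0.72, adjusted p = 1.8e-07) and including STIP1, the HSP70 to HSP90 adaptor (log2 0.44, adjusted p = 1.77e-05).

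**Figure D5:**
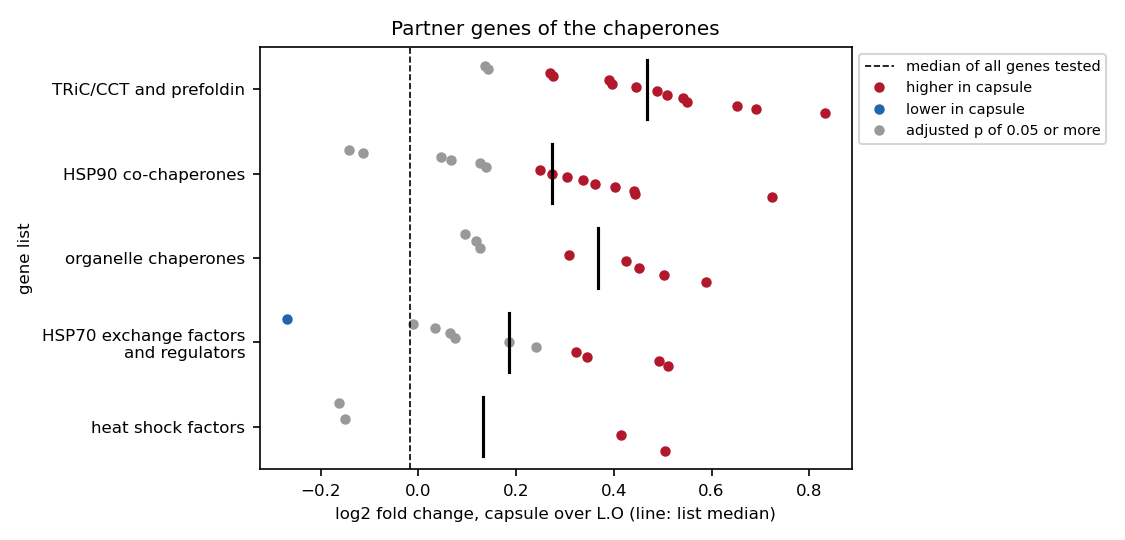
Log2 fold change, capsule over L.O, of the genes in 5 partner lists; each dot is a gene, coloured by its call, solid lines are list medians and the dashed line is the median of all genes tested (-0.018). All CCT and prefoldin genes lie to the right of the dashed line, and BAG3 is the blue dot.

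Among 11 exchange factors and regulators of HSP70, 4 were higher and 1 lower in capsule than in L.O (2 and 1 with library totals alone). The mitochondrial exchange factors GRPEL1 and GRPEL2, partners of HSPA9, rose by 0.49 and 0.51 log2 (adjusted p = 9.9e-06 and 0.000121), and BAG2 and BAG4 by 0.35 and 0.32 (adjusted p = 0.0121 and 0.00648). BAG3, the stress-inducible partner of HSPB8, was lower (64.5 ± 1.25 against 77.7 ± 3.21 normalised CPM, log2 -0.27, adjusted p = 0.00415). Of 4 heat shock factor genes, HSF2 and the HSF1-binding HSBP1 were higher in capsule than in L.O (log2 0.50 and 0.41, adjusted p = 0.000451 and 0.000105), and HSF1 (174 ± 11.1 against 194 ± 22.3 normalised CPM, adjusted p = 0.15) and HSF4 (adjusted p = 0.461) did not pass. With library totals alone 2 of the 4 were higher and 1 lower. Of 8 organelle chaperones kept out of the set by its rule, 5 were higher and 0 lower (4 and 0 with library totals alone): HSPA5 and HSP90B1 of the endoplasmic reticulum (log2 0.50 and 0.59, adjusted p = 3.76e-06 and 8.79e-06), HYOU1 (log2 0.31, adjusted p = 0.00128), and TRAP1 and LONP1 of mitochondria (log2 0.45 and 0.43, adjusted p = 2.47e-05 and 0.000134).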

How the data were processed

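Counts of reads per gene, as deposited by the authors, were whole numbers without normalization for 17911 Entrez IDs in 9 columns. The submitters' processing notes name hg38, featureCounts and limma without versions. Annotation and strand setting are not given in the sources used here, and the processing notes name no aligner. The capsule and L.O column headers hold the word subread, which the Sph.WT headers lack. Any difference in alignment between them was not tested. Rows without a symbol (237) were kept. Counts were scaled by TMM and genes filtered by filterByExpr in edgeR 4.0.16 (R 4.3.3), and a quasi-likelihood model had 1 coefficient each for capsule, L.O and Sph.WT columns. Its common coefficient of variation between replicates was 7.73%. DESeq2 1.42.0, limma 3.58.1, other scalings, no filter and leaving out each column were alternatives. The SE is the absolute log2 fold change divided by the square root of F. Levels per length used joined exons of GENCODE release 29. Intervals for single values are not given: SDs cover 3 columns.

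Genes named with full values included the 12 members that differed most between capsule and the mean of both spheroid sets. They also included the 6 that differed most between those spheroid sets. Each of these was called and had a mean of at least 5 CPM. The 10 most abundant members and the 10 of the heat-inducible list were named too. Others were chosen by role after their values were seen. Members and lists were chosen with earlier results of these data known. The mean chi-square per gene between columns of 1 set was 3.31 to 14.3, above the sampling noise, so no pair of columns was counted as 1. Immune, fibroblast and endothelial markers summed to at most 8.311, 42.01 and 0.9839 CPM in capsule, 12.17, 95.38 and 2.627 in L.O and 51.26, 193.9 and 10.28 in Sph.WT.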

Additional observations from a re-analysis of the deposited data

Results flagged for a closer look

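DNAJC28 was singled out because 1 of the 6 spheroid columns, the second Sph.WT column at 1.104 normalised CPM, lay far from the other 5 (1.566 to 1.734). The gap made up 0.734 of the range over the 6 columns, above Dixon's 95% critical value for 6 values. In uniform groups, chance alone singles out about 1 in 20, and 68 members were examined. These 6 columns hold 2 sets that differ, so that rate may not apply here. DNAJC28 had 24 to 30 counts in each of the 6 columns.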

How the results depend on the processing

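With library totals alone, members higher in capsule than in L.O numbered 17 instead of 29 (all genes 2216 instead of 3829), and members lower in L.O than in Sph.WT 17 instead of 29. With all 6 spheroid columns as 1 group, capsule had 2 members higher, 2 lower and 0 past 2-fold (all genes 390 and 249), since the spread within that group then holds the difference between its column sets. Other counts over all members or all genes stayed within 1.5 times of their values under each alternative. Counts of families and partner lists moved by more with library totals and stand beside them in the report. Leaving out 1 column gave 24 to 32 members higher and 11 to 13 lower in capsule than in L.O, with 2 to 3 past 2-fold (all genes 3173 to 3988 and 3157 to 4030). Against Sph.WT these fits gave 25 to 27 and 22 to 24 in capsule, with 20 to 23 past 2-fold, and 26 to 29 and 26 to 29 in L.O, with 23 to 26 past 2-fold. For the mean of the spheroid sets they gave 26 to 31 and 18 to 23, with 7 to 10 past 2-fold. Of the 29 higher and 12 lower members of capsule against L.O, 22 and 11 kept their call in all 9 such fits, 23 and 12 with DESeq2, 24 and 12 with its size factors in edgeR, 28 and 11 with limma voom, 29 and 11 without a filter, 22 and 10 at an adjusted p of 0.01, and 28 and 12 without the Sph.WT columns, a fit chosen after the data had been seen.

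Some signs changed, and the cause was not tested. Library totals raise every log2 difference of L.O from Sph.WT by a like amount (the median of all genes from -0.012 to 0.45), and of the 67 members tested 9 lost their call there, 6 gained one and 3 turned. Between capsule and L.O, the fits that left out 1 column gave DNAJB1 -0.073 to 0.017 log2 and HSPA12A -0.096 to 0.047 (0.016 without capsule replicate 1), and DNAJB6 -0.021 with library totals. Between capsule and Sph.WT, DNAJA1 reached 0.30 with library totals (adjusted p = 0.000424 in edgeR), 0.017 and 0.017 with DESeq2 size factors and DESeq2, and -0.051 to 0.041 with 1 column left out (highest without the second Sph.WT column), while DNAJB1 reached 0.058 and HSPH1 0.021 with library totals, against -0.26 and -0.29. Between L.O and Sph.WT, DNAJA1 turned to 0.25 with library totals (adjusted p = 0.00215) against -0.21 (0.00964) and DNAJB1 to 0.24 (0.00219) against -0.23 (0.00535), while HSPA4 reached 0.038 (0.652) against -0.43 (4.7e-05), DNAJB2 0.42 against -0.045, DNAJC4 0.36 against -0.10 and HSPE1 0.28 against -0.18, and both DESeq2 settings gave DNAJB2 0.027. Between capsule and the mean of the spheroid sets, leaving out 1 column gave HSPA2 -0.26 to 0.014 and HSPH1 -0.069 to 0.059 (both highest without the second Sph.WT column), and HSPH1 0.056 with library totals. Column names end in 1 to 3 in each set, and nothing ties these endings to a shared culture or batch. Between columns of different sets with the same ending, deviations from the set means correlated at -0.116 to 0.0233 over genes (9 pairs). Columns that correlated best with their own number in both other sets at once numbered 0. A replicate block on that number, chosen after the data had been seen, gave 27 members higher and 12 lower in capsule than in L.O, 26 and 23 than in Sph.WT, and 28 and 28 in L.O than in Sph.WT. A common spread of 7.73% over 3 columns limits small differences, and genes near 3 counts are limited by depth.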
